A study of Mus musculus with 6 samples.

Results

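The ubiquitin-specific proteases (USPs) form the largest class of deubiquitinases, the enzymes that remove ubiquitin from proteins. The family was taken as every protein-coding gene whose symbol starts with Usp and a digit, which gave 56 members among 56748 genes, 21970 of them protein-coding. They were followed in the mouse macrophage-like line RAW264.7, in 2 groups of 3 RNA-seq libraries. Cells of the Fbxw11 group had been given the lentivirus pMSCV-Fbxw11-pGk-GFP, and cells of the control group a lentivirus with the control vector. The control libraries are named GFP in the labels, which give no map of that vector. Both groups were sorted before RNA was extracted. The labels leave unsaid whether a group's 3 libraries had their own cultures or transductions, so each p-value is measured against a spread between libraries that may be only technical. Symbols chose the members, so Usp6nl is counted although its product is a Rab GTPase-activating protein and not a protease. Without it the family has 55 members.

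Ubiquitin is joined to proteins by ligases and taken off by deubiquitinases, so the state of a protein depends on both. Fbxw11 encodes β-TrCP2, which picks substrates for the SCF ubiquitin ligase. USPs share a papain-like catalytic fold and differ in the domains around it, which direct them to chromatin, endosomes, the proteasome or signalling complexes. In macrophages the member best known for its regulation is Usp18, an interferon-induced enzyme that removes the ubiquitin-like protein ISG15 and also restrains signalling from the type I interferon receptor. Usp47 is known to bind β-TrCP, and the Usp37 protein is a known β-TrCP substrate. Transcripts were measured here, not proteins.

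Values are FPKM, reads scaled by the authors to gene length and library size, so levels can be compared between genes. Whole reads could be recovered from them, with 16191971 to 18951653 reads per library. Fbxw11 itself stood at 36.1 ± 0.409 FPKM in control and 271 ± 2.74 FPKM with Fbxw11 (SD, n = 3, 7.51-fold), as the labels say, with vector and endogenous reads together. All 10 macrophage markers were well expressed, the lowest averaging 23.9 FPKM. Of 12 markers of lymphoid, epithelial, fibroblast and endothelial cells, 4 reached 1 FPKM, the highest being Cd79a at 2.16 FPKM, and 3 had 0 reads in every library. The summed macrophage markers ran from 3618 to 3788 FPKM in control and from 4013 to 4144 FPKM with Fbxw11. Lyz2 held most of that sum, with means of 2346 and 2628 FPKM. Groups did not overlap for 8 of the 10 markers (80%, against 31.1% of all genes), 7 higher and 1 (Csf1r) lower with Fbxw11. The part of these markers in the results below was not tested. The summed markers of other cells ran from 5.81 to 6.44 and from 4.58 to 5.89 FPKM. In bulk RNA, fewer cells of a kind and less RNA per cell cannot be told apart. The second principal component, with 23.7% of the variance, set the libraries numbered 3 of both groups apart from the other 4. For family members, results are therefore also given without them where that changes a call. Genes outside the family are given with all 6 libraries only.

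RAW264.7 cells expressed most of the family. Of the 56 members, 39 averaged 1 FPKM or more across all 6 libraries and were tested, while 17 fell under that limit. Levels of the tested members spanned 2 orders of magnitude: 17 members averaged 10 FPKM or more, 10 lay between 5 and 10 FPKM, and 12 between 1 and 5 FPKM. Usp18 stood far above the rest, with a higher mean level than 97.5% of all tested genes. Usp25 and Usp39 followed, above 90.2% and 89.5% of them, and then Usp8, Usp5, Usp1, Usp14 and Usp7 in that order. Usp46 was the least abundant tested member, above 4.03%. Neighbours in this order mostly overlapped between libraries: Usp25 ran from 43.7 to 47.6 FPKM and Usp39 from 41.0 to 44.8 FPKM.

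**Figure D1:**
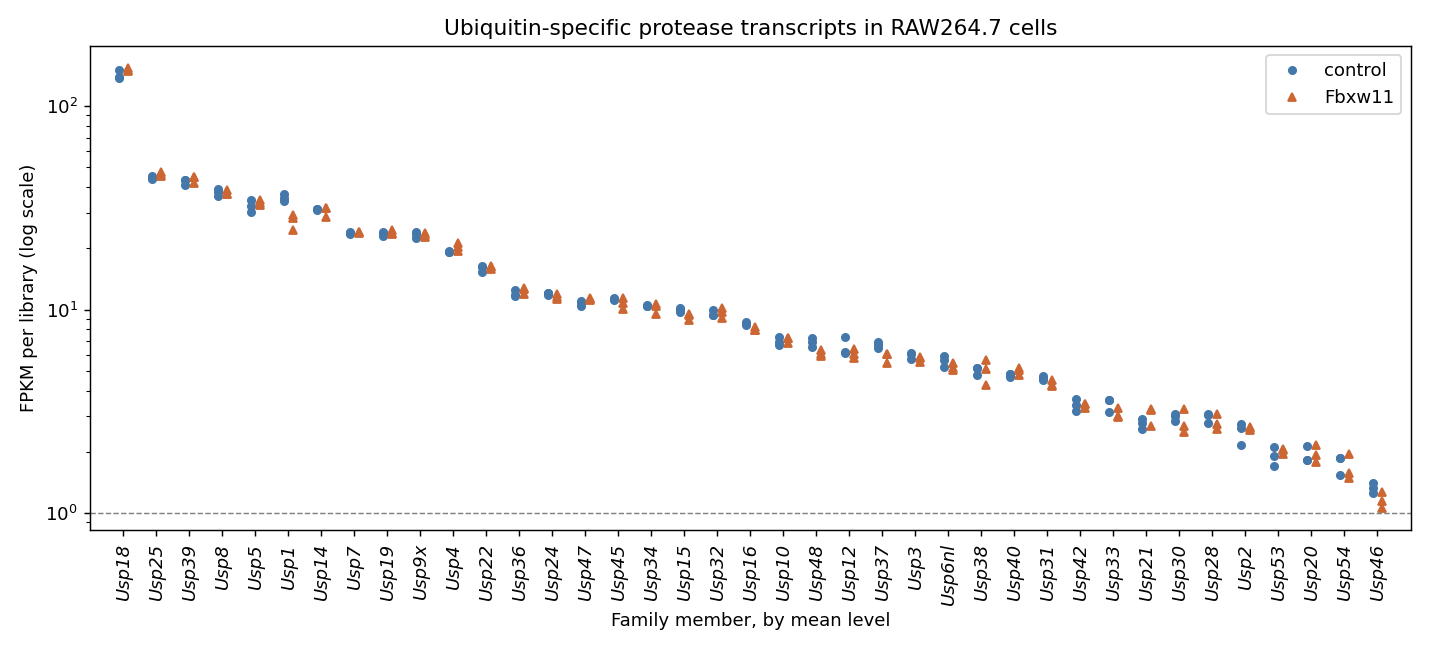
FPKM per library on a log axis for the 39 tested members, ordered by mean level; circles are control libraries, triangles Fbxw11 libraries, 3 of each, and the dashed line is 1 FPKM. Usp18 stands alone at the top in both groups, and Usp1 is the member whose circles and triangles are furthest apart.

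The summed level of the family was close to equal in both groups. Summed over the 56 members it came to 637 ± 7.28 FPKM in control and 639 ± 2.20 FPKM with Fbxw11. That was 0.220% ± 0.00401 and 0.214% ± 0.000304 of all FPKM, the share being lower in each Fbxw11 library than in any control library. Usp18 alone held 22.3% ± 0.896 of the family sum in control and 23.6% ± 0.438 in Fbxw11 libraries. The 8 most abundant members together held 61.1% ± 0.326 and 61.7% ± 0.159. Without Usp18 the sum was 495 ± 2.43 FPKM in control and 488 ± 2.93 FPKM with Fbxw11, lower in each Fbxw11 library than in any control library.

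Each gene was tested with limma on log2(FPKM + 1), and "rose" or "fell" means a Benjamini-Hochberg adjusted p under 0.05 over all 10898 genes tested, higher or lower in the Fbxw11 libraries. Of the 39 tested USPs, 0 rose and 1 fell (2.56%), Usp1. Over all tested genes 4.60% rose and 4.64% fell, a balance that moved with scaling: on the TPM scale 348 genes rose and 712 fell. At an unadjusted limma p under 0.05 there were 3 members, 0 higher and 3 lower (Usp1, Usp37 and Usp48), against 24.6% of all genes. Limma's voom on the recovered reads also called 0 rises, and 4 falls (10.3%), against 4.77% rises and 9.53% falls over all genes. The control and Fbxw11 values did not overlap for 7 members (17.95%), of which 2 were higher and 5 lower, against 31.1% of all genes. The median log2 fold change of the members was -0.01, beside 0.00 for all genes, with 17 members above and 22 below 0. Their median absolute log2 fold change was 0.05, beside 0.09 over all tested genes.

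The precision of these values bounds what could have been missed. The 95% interval of a member's log2 fold change had a median half-width of 0.11, beside 0.15 over all genes. For 30 of the 39 members the whole interval lay within 0.25 of 0 in either direction, and for 38 within 0.5. Reads behind a tested member ran from 141 to 7375 per library, and 21 members had at least 1000 reads in each library. Whole intervals below 0 were found for Usp1, Usp37 and Usp48. The added 1 FPKM shrinks the log2 fold change of weakly expressed members, so their FPKM values are given too.

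**Figure D2:**
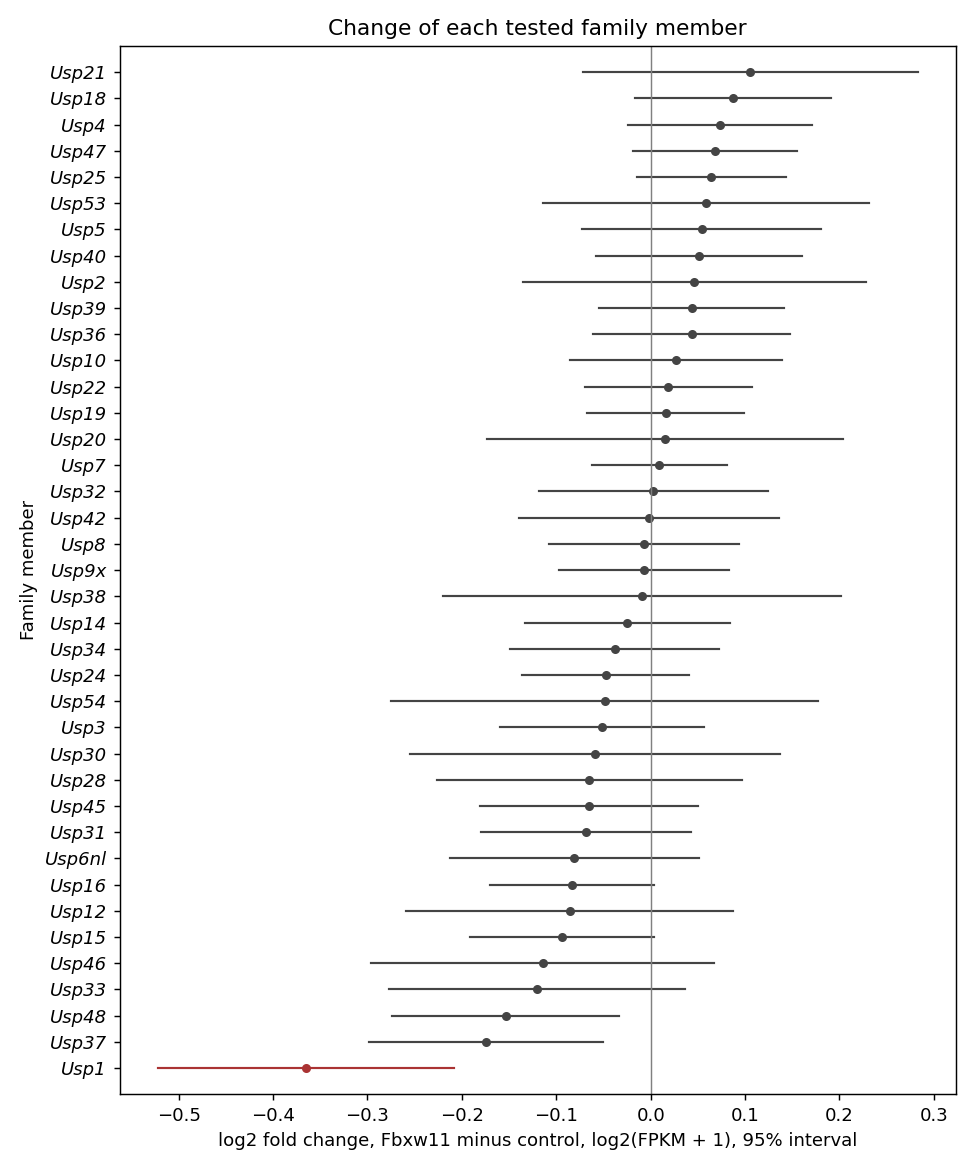
Log2 fold change of each tested member on the log2(FPKM + 1) scale, Fbxw11 minus control, with its 95% interval from limma; the vertical line is 0 and the member past the threshold is red. Points run from -0.37 (Usp1) to 0.11 (Usp21), and the interval of Usp1 is the one furthest from 0.

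Usp1 encodes the nuclear protease that removes ubiquitin from PCNA and FANCD2, proteins of DNA damage tolerance and crosslink repair. It stood at 36.8, 35.2 and 34.3 FPKM in control libraries 1 to 3 and at 24.7, 29.1 and 28.3 FPKM in Fbxw11 libraries 1 to 3. All 3 Fbxw11 libraries lay below all 3 control libraries. The means were 35.5 ± 1.27 and 27.4 ± 2.35 FPKM, 1.30-fold lower with Fbxw11 (log2 fold change -0.37, SE 0.066, 95% interval -0.52 to -0.21, limma adjusted p = 0.0202). Between 1501 and 2526 reads per library lay behind these values. The file places Usp1 (ENSMUSG00000028560) on chromosome 4 at 98812047 to 98823780, plus strand, in its own coordinates. The submitters name the build mm10, but 43 of the 56 members lie outside their RefSeq span on that build. No other gene at 1 FPKM or more overlapped Usp1. The call was lost under 5 of 17 alternative settings. Among these the adjusted p was 0.0795 without control library 1, 0.0758 without control library 2, 0.0530 without the libraries numbered 3, and 0.0604 with no filter on low values.

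The USP1 protein works with a WD-repeat cofactor, UAF1, encoded by Wdr48, which also serves USP12 and USP46. Wdr48 stood at 6.74 ± 0.516 FPKM in control and 6.68 ± 0.159 FPKM with Fbxw11 (limma adjusted p = 0.945). The ratio of Usp1 to Wdr48 in FPKM was 5.13, 5.70 and 5.004 in control and 3.76, 4.40 and 4.13 in Fbxw11 libraries. The groups of ratios did not overlap, with an exact two-sided permutation p of 0.1, the smallest that 3 against 3 libraries allow. Usp1 itself had already been called, so this ratio is not separate support. Of the other members that use this cofactor, Usp12 and Usp46 did not pass, so 1 of 3 fell (33.3% called, against 9.24% of all genes). Usp46 ran from 1.249 to 1.41 FPKM in control and from 1.06 to 1.26 FPKM with Fbxw11, overlapping (log2 fold change -0.11, adjusted p = 0.408).

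Other genes of DNA replication and S phase were measured beside Usp1. In a list of 20 such genes, drawn up with earlier results known, 19 fell and 0 rose (95% called, against 9.24% of all genes). Their median log2 fold change was -0.47. Of the 20, 15 had a lower log2 fold change than Usp1. Mcm6, part of the helicase that unwinds DNA at replication forks, fell by 0.64 on the log2 scale, with means of 57.6 ± 1.46 and 36.5 ± 0.269 FPKM. The ratio of Usp1 to Mcm6 was therefore 0.616 ± 0.0373 in control and 0.749 ± 0.0664 in Fbxw11 libraries, higher in each Fbxw11 library than in any control library (exact two-sided permutation p = 0.1, the smallest possible).

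Among the 7 USPs listed for cell cycle roles, 6 were tested, 1 fell (Usp1) and 0 rose (16.7% called, against 9.24% of all genes). Their median log2 fold change was -0.10. Groups did not overlap for 4 of the 6, of which 3 were lower and 1 higher with Fbxw11, against 31.1% of all genes. Usp37 opposes the anaphase-promoting complex by removing ubiquitin from cyclin A. It stood at 6.95, 6.69 and 6.51 FPKM in control and at 5.45, 6.02 and 6.05 FPKM with Fbxw11. The groups did not overlap, yet the difference missed the threshold (log2 fold change -0.17, SE 0.052, adjusted p = 0.0924). It passed on the TPM scale (0.0487) and with voom on recovered reads (0.00987). Usp37 overlaps Cnot9 on the opposite strand in the file, and no source used here states whether counting was by strand. Beside Usp37, Usp1 stood at a ratio of 5.28 ± 0.0212 in control and 4.68 ± 0.151 in Fbxw11 libraries, again without overlap (exact two-sided permutation p = 0.1).

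Usp48 and Usp16 also lay lower in each Fbxw11 library. The nuclear protease Usp48, which acts on histone H2A, stood at 7.26, 6.54 and 6.89 FPKM in control and at 5.91, 6.33 and 6.05 FPKM with Fbxw11. These groups were separate too (log2 fold change -0.15, SE 0.050, limma adjusted p = 0.119). Voom on recovered reads called it (adjusted p = 0.0223). Usp16, another histone H2A deubiquitinase, named here after its values were seen, ran from 8.44 to 8.68 FPKM in control and from 7.92 to 8.18 FPKM with Fbxw11 (-0.08, adjusted p = 0.217). It overlaps Cct8 on the opposite strand. In the list of 15 chromatin and DNA repair USPs, 10 were tested, 1 fell (Usp1) and 0 rose (10% called, near the 9.24% of all genes). Their median log2 fold change was -0.03.

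Usp47 and Usp33 complete the tested cell cycle group together with Usp28 and with Usp16, given above. Usp47, which acts in base excision repair and binds β-TrCP, stood at 10.98, 10.8 and 10.4 FPKM in control and 11.4, 11.3 and 11.2 FPKM with Fbxw11. It was higher in each Fbxw11 library, by less than the test required (log2 fold change 0.07, 95% interval -0.02 to 0.16, adjusted p = 0.303). Usp33, a regulator of centrosome duplication and receptor recycling, stood at 3.13, 3.58 and 3.60 FPKM in control and 3.27, 2.95 and 3.01 FPKM with Fbxw11, with overlap (-0.12, adjusted p = 0.315).

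Usp18 was the most abundant member in every library. It stood at 138, 137 and 150 FPKM in control and at 154, 148 and 151 FPKM with Fbxw11. Control library 3 lay among the Fbxw11 libraries, while control libraries 1 and 2 lay below all of them. The log2 fold change was 0.09 (SE 0.044, 95% interval -0.02 to 0.19, limma adjusted p = 0.277), with 6349 to 7375 reads per library. Usp18 (ENSMUSG00000030107) lies on chromosome 6 at 121222865 to 121247876, plus strand, in the file's coordinates. It is itself an interferon-stimulated gene. Of 29 other interferon-stimulated genes tested, a list also drawn up with earlier results known, 16 rose and 0 fell. That was 55.2% called, against 9.24% of all genes, with a median log2 fold change of 0.17. Of these 29, 20 had a higher log2 fold change than Usp18, and 4 had a higher FPKM level. Whether Usp18 differed in response from this list as a whole was not tested.

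The genes for the partners of Usp18 did pass. Isg15 and Stat2 also belong to the list of interferon-stimulated genes above and are already counted among its rises. Isg15, the ubiquitin-like modifier that USP18 removes, stood at 399, 410 and 443 FPKM in control and 494, 484 and 510 FPKM with Fbxw11. Without overlap between groups, Isg15 rose (log2 fold change 0.25, SE 0.048, adjusted p = 0.0243). Stat2, which brings USP18 to the interferon receptor, rose from 34.9 ± 0.889 to 44.1 ± 0.315 FPKM (0.33, adjusted p = 0.00274). Ifnar2, the receptor chain that USP18 occupies, rose from 14.5 ± 0.620 to 16.8 ± 0.475 FPKM (0.20, adjusted p = 0.0352). Per Usp18 transcript, each partner was higher in every Fbxw11 library than in any control library. Isg15 stood at 2.94 ± 0.0517 and 3.29 ± 0.0909 times the Usp18 level, Stat2 at 0.246 ± 0.0164 and 0.292 ± 0.00675, and Ifnar2 at 0.102 ± 0.000813 and 0.111 ± 0.00400. Of the 6 ratios computed in all, each gave an exact two-sided permutation p of 0.1, also after Benjamini-Hochberg adjustment, the smallest this design allows. These ratios reuse the levels tested above, and each holds a gene already called, so they add no separate support.

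**Figure D3:**
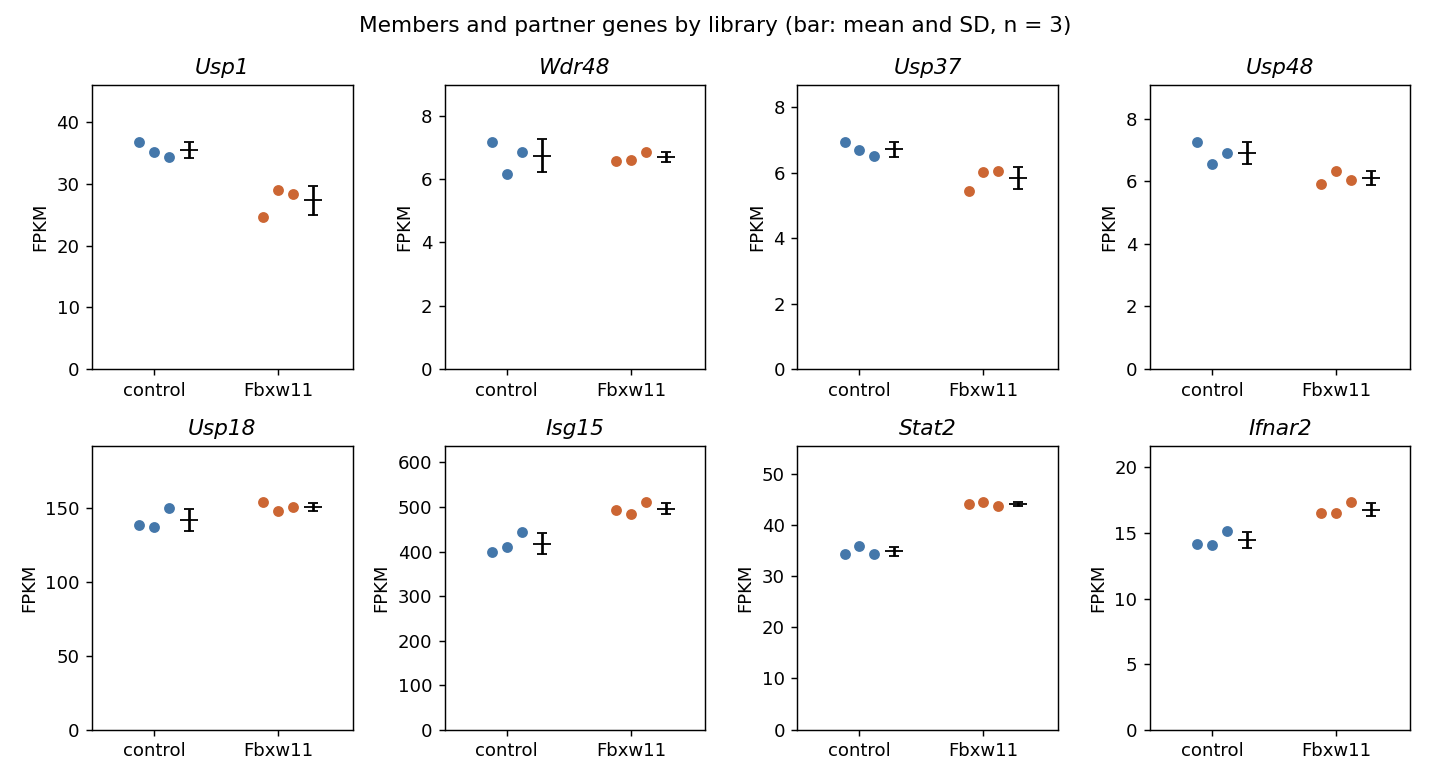
FPKM per library, axes from 0, for Usp1 and its cofactor gene Wdr48, for Usp37 and Usp48, and for Usp18 with Isg15, Stat2 and Ifnar2; points are libraries in order 1 to 3 and bars are the mean and SD (n = 3). Usp1, Usp37 and Usp48 are lower in every Fbxw11 library, Wdr48 and Usp18 overlap, and Isg15, Stat2 and Ifnar2 are higher in every Fbxw11 library.

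The list of USPs of innate immune signalling, which includes Usp18, showed no limma call. In that list 10 of 10 members were tested, 0 rose and 0 fell, against 9.24% of all genes called. An unadjusted limma p under 0.05 was found for 0 of them, against 24.6% of all genes, and their median log2 fold change was 0.03. Voom on recovered reads called 1 of the 10, Usp15, against 4.77% rises and 9.53% falls over all genes. Usp25, which trims ubiquitin from TRAF adaptors, stood at 44.2, 45.3 and 43.7 FPKM in control and 45.4, 46.4 and 47.6 FPKM with Fbxw11. Every Fbxw11 library was above every control library, by a small margin (0.06, 95% interval -0.01 to 0.14, adjusted p = 0.291). Usp21, which removes ubiquitin from RIG-I and histone H2A, had the highest log2 fold change of the 39 tested members (0.11, 95% interval -0.07 to 0.28, adjusted p = 0.435), from 2.60 to 2.89 FPKM in control and 2.69 to 3.25 FPKM with Fbxw11. Those groups overlapped. Usp15, a regulator of TGF-β signalling, stood at 10.2, 10.0 and 9.72 FPKM in control and 9.36, 9.55 and 8.92 FPKM with Fbxw11. The groups did not overlap (-0.09, SE 0.041, limma adjusted p = 0.219, and 0.0391 with voom).

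The abundant housekeeping members were close to equal in the 2 groups. Usp5 takes apart unanchored ubiquitin chains and Usp14 trims chains at the proteasome. Usp5 stood at 30.2, 32.5 and 34.5 FPKM in control and 34.5, 33.6 and 32.8 FPKM with Fbxw11 (log2 fold change 0.05, adjusted p = 0.584). Usp14 stood at 31.1, 31.4 and 30.8 FPKM in control and 28.6, 31.5 and 31.6 FPKM with Fbxw11 (-0.02, adjusted p = 0.786). Both pairs of groups overlapped. Usp14 overlaps Thoc1 on the opposite strand.

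Usp7, the protease of MDM2 and p53, had the smallest standard error of the members named (0.030). It ran from 23.4 to 24.0 FPKM in control and from 23.7 to 24.0 FPKM with Fbxw11 (log2 fold change 0.01, 95% interval -0.06 to 0.08, adjusted p = 0.886). Usp22, which removes ubiquitin from histone H2B within the SAGA coactivator, ran from 15.4 to 16.3 FPKM and from 15.9 to 16.3 FPKM (0.02, 95% interval -0.07 to 0.11). The signs of Usp7 and Usp22 turned negative on the TPM scale, with voom and over plain read sums. Among partners of Usp22 in SAGA, Atxn7 rose from 5.03 ± 0.165 to 6.03 ± 0.214 FPKM (0.22, adjusted p = 0.0311). It is a 4th call in the partner list and was named outside the rule for genes, after its value was seen. The other 5 listed genes of this module, Atxn7l1, Atxn7l2, Atxn7l3, Atxn7l3b and Eny2, were not called, with log2 fold changes from -0.05 to 0.10 and adjusted p from 0.267 to 0.986.

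Usp8, an endosomal protease that spares receptors from lysosomal sorting, ran from 36.2 to 39.3 FPKM in control and from 36.9 to 38.9 FPKM with Fbxw11 (-0.01, 95% interval -0.11 to 0.09). Usp9x, a very large protease with substrates such as MCL1, ran from 22.6 to 24.1 FPKM and from 22.7 to 23.7 FPKM (-0.01, 95% interval -0.10 to 0.08). Usp39, a spliceosome component that lacks protease activity, ran from 41.0 to 43.5 FPKM and from 42.1 to 44.8 FPKM (0.04, 95% interval -0.05 to 0.14). All 3 overlapped between groups. The signs of Usp8 and Usp9x turned positive under median scaling. By list, limma called 0 of 6 tested members of the endosome, ER and mitochondria group, 0 of 3 large multidomain members, 0 of 2 free-ubiquitin and proteasome members, and 0 of 3 with low or no protease activity. Over all tested genes limma called 9.24%. In these 4 lists 0 members had an unadjusted limma p under 0.05, against 24.6% of all genes. Voom also called 0 of them, against 4.77% rises and 9.53% falls over all genes.

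The other 22 tested members had log2 fold changes from -0.09 (Usp12) to 0.07 (Usp4) and adjusted p-values from 0.217 (Usp16) upward. Besides these 3 they were Usp2, Usp3, Usp6nl, Usp10, Usp19, Usp20, Usp24, Usp28, Usp30, Usp31, Usp32, Usp34, Usp36, Usp38, Usp40, Usp42, Usp45, Usp53 and Usp54. Of these 19, Usp19, a protease of the ER membrane, was the most abundant, from 23.1 to 24.1 FPKM in control and from 23.4 to 24.5 FPKM with Fbxw11. Usp30, a mitochondrial outer membrane protease that opposes Parkin, ran from 2.83 to 3.05 FPKM in control and from 2.51 to 3.25 FPKM with Fbxw11. Both overlapped between groups and were named outside the rule for genes. The 8 tested members with an opposite-strand neighbour at 1 FPKM or more included Usp30, Usp34, Usp40, Usp45 and Usp54 beside Usp14, Usp16 and Usp37.

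Within sets of close relatives the balance ranged from nearly even to entirely one-sided. Usp25 held 93.4% to 94.8% of the summed FPKM of Usp25 and Usp28 over the 6 libraries. Usp5 held 99.86% to 99.98% against Usp13, and Usp22 held 96.8% to 97.8% against Usp27x and Usp51. Usp9x, Usp31 and Usp37 held 100% against Usp9y, Usp43, and the pair Usp26 and Usp29. Usp53 held 47.6% to 57.7% against Usp54, and Usp45 held 55.96% to 58.8% against Usp16, the most even sets. Of the remaining sets with tested members, Usp12 held 81.5% to 85.9% against Usp46, Usp36 76.5% to 79.9% against Usp42, and Usp38 80.6% to 86.6% against Usp35. These sets and the members in them were named outside the rule for genes.

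The share did not overlap between the groups in 2 of the 14 sets (14.3%). By level, the groups did not overlap for 31.1% of all genes. A share is another measure than a level, and sets at 100% in every library could not separate. These figures therefore cannot be compared. Usp4 held 64.2% to 64.9% of the Usp4, Usp11 and Usp15 sum in control and 67.2% to 68.3% with Fbxw11. Behind it, Usp4 ran from 19.1 to 19.3 FPKM in control and from 19.3 to 21.2 FPKM with Fbxw11 (log2 fold change 0.07, adjusted p = 0.324), while Usp15 was lower as given above. Usp33 held 62.8% to 66.2% of the Usp20 and Usp33 sum in control and 60.3% to 62.4% with Fbxw11. The treatment of reads shared by close relatives is not stated, so such shares are less certain than single values.

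Of the 17 members under the filter, 4 had 0 reads in every library: Usp26, Usp29, Usp43 and Usp9y. A count of 0 allows up to 3 reads per library, counting error only. The list of testis-linked USPs had 0 of 5 members tested, since besides Usp26, Usp29 and Usp9y it holds Usp44 and Usp50, with 19 and 22 reads over all 6 libraries. Usp50 overlaps the abundant Usp8 on the opposite strand. The Usp17-like genes Usp17la, Usp17lb, Usp17lc, Usp17ld and Usp17le are near-identical copies, so their separate values are uncertain. They had between 7 and 43 reads each over the 6 libraries.

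Of the 17 members under the filter, groups did not overlap for 2, Usp11 and Usp35. The share over all genes under the filter is not given here, so this count has no background to be read against. Usp11, which acts in homologous recombination repair, had 146 reads over the control and 98 over the Fbxw11 libraries. It stood at 0.553, 0.583 and 0.623 FPKM in control and 0.454, 0.367 and 0.397 FPKM with Fbxw11, 1.44-fold lower in the means. With no filter on low values its log2 fold change was -0.17 and its adjusted p 0.246. Usp35 had 235 and 258 reads and stood at 0.805, 0.856 and 0.870 FPKM in control and 1.03, 0.953 and 0.877 FPKM with Fbxw11 (adjusted p = 0.686 with no filter). Usp27x had 103 and 92 reads and Usp49 had 100 and 103, with overlap in both. The other 9 had at most 43 reads each over all libraries, and differences among them were not detectable at this depth.

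Most deubiquitinases of the other classes did not pass the test. Of 39 such genes 34 were tested, 2 rose and 2 fell (11.76% called, against 9.24% of all genes), and groups did not overlap for 12 (35.29%, against 31.1%). These shares lie near those of all genes. In the OTU class, Tnfaip3, the gene of the NF-κB inhibitor A20, averaged 13.3 ± 0.487 FPKM in control and 17.0 ± 0.504 FPKM with Fbxw11 and so rose by a log2 fold change of 0.33 (adjusted p = 0.00616). Otulin, which cleaves linear ubiquitin chains, rose from 29.2 ± 1.47 to 34.4 ± 1.73 FPKM (0.23, adjusted p = 0.0450). Uchl3, of the UCH class, fell from 13.0 ± 1.10 to 9.85 ± 0.530 FPKM (-0.36, adjusted p = 0.0234), a log2 fold change close to that of Usp1. The spliceosome protein gene Prpf8, of the JAMM class by its domain, fell from 65.3 ± 1.57 to 58.3 ± 1.14 FPKM (-0.16, adjusted p = 0.0311). Cyld, Pan2 and Uspl1 carry a USP domain under other names, and their limma adjusted p ran from 0.423 to 0.781. A difference between the USPs and the other classes was not tested.

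Genes for what the USPs act on were also measured. Of 8 genes for ubiquitin, ISG15 and their activating enzymes, 1 rose (Isg15) and 0 fell (12.5% called, against 9.24% of all genes). Of 18 partner genes 17 were tested, 4 rose (Isg15, Stat2, Ifnar2 and Atxn7) and 0 fell (23.5% called, against 9.24%).

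Promoter sequence was not used to choose the members, and was compared with that of other genes. Windows of 300 bases, 250 before to 50 after the start, were taken from RefSeq (GRCm38.p6) and matched by symbol for 43 members, 44 windows in all. Not matched were Usp1, Usp5, Usp14, Usp17le, Usp18, Usp22, Usp33, Usp39, Usp42, Usp43, Usp44, Usp53 and Usp9x. Windows are shown for Usp37 and Usp48, which lay lower in each Fbxw11 library, and for Usp26, which had 0 reads. Capitals mark the GC box GGGCGG and the CCAAT box, each on either strand.
Usp37, chr1:74505772-74506071, minus strand: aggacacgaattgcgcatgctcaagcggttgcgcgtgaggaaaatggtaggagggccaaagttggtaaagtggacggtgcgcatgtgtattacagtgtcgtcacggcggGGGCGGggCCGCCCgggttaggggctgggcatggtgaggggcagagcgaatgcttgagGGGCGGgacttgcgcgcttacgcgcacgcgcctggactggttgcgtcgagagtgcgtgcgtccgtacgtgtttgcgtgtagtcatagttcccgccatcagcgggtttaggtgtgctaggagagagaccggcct
Usp48, chr4:137593922-137594221, plus strand: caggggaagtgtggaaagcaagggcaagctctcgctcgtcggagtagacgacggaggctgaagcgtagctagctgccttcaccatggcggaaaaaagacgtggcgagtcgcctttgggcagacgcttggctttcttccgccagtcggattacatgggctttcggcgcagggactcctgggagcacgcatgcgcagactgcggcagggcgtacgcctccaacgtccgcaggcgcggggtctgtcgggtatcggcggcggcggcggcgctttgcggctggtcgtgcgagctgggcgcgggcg
Usp26, chrX:51801184-51801483, minus strand: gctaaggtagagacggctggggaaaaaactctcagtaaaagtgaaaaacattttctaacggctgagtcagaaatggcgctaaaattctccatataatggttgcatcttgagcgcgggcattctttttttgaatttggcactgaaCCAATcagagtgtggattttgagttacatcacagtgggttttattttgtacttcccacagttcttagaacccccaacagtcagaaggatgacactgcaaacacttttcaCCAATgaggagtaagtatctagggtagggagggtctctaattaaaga

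The Usp37 window is 62% G and C and holds 3 GC boxes, the Usp48 window is 66.3% G and C and holds 0 of either box, and the Usp26 window is 41.3% G and C and holds 2 CCAAT boxes. Across the family the windows had a median of 64% G and C, beside 52.7% over all 32851 windows and 56.3% over the 21263 windows of protein-coding genes. The letters GGGCGG stood on either strand in 28 of the 44 windows (63.6%), against 35.7% of all windows and 46.2% of those of protein-coding genes. Tested members had them in 24 of 30 windows (80%) and members under the filter in 4 of 14 (28.6%). The split ran the same way over all protein-coding genes, at 63.9% of windows of tested genes and 32.4% of windows of genes under the filter. For CCAAT on either strand, whose first letters can overlap the end of CCGCCC, the order was the other way: 4 of 30 (13.3%) and 10 of 14 (71.4%). Over all protein-coding genes it stood in 37.8% of windows of tested genes and 38.3% of windows of genes under the filter. Several windows belong to the Usp17-like copies, and without them the members under the filter had GGGCGG in 4 and CCAAT in 6 of 10 windows. Median G and C was 66.3% in windows of tested members and 48.8% in the others, beside 61% and 52.3% over all protein-coding genes. GGGCGG is made of G and C alone, so its share and the base composition are not separate measures. The letters TTTGGCGC and TTTCGCGC, forms of the E2F site, were sought on either strand, and other forms were not. They stood in 0 of the 44 windows, in 0.813% of all windows and in 1.67% of windows of tested protein-coding genes. At shares this low, 0 of 44 windows cannot show that the family lacks the site. These shares are descriptions with no test.

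**Figure D4:**
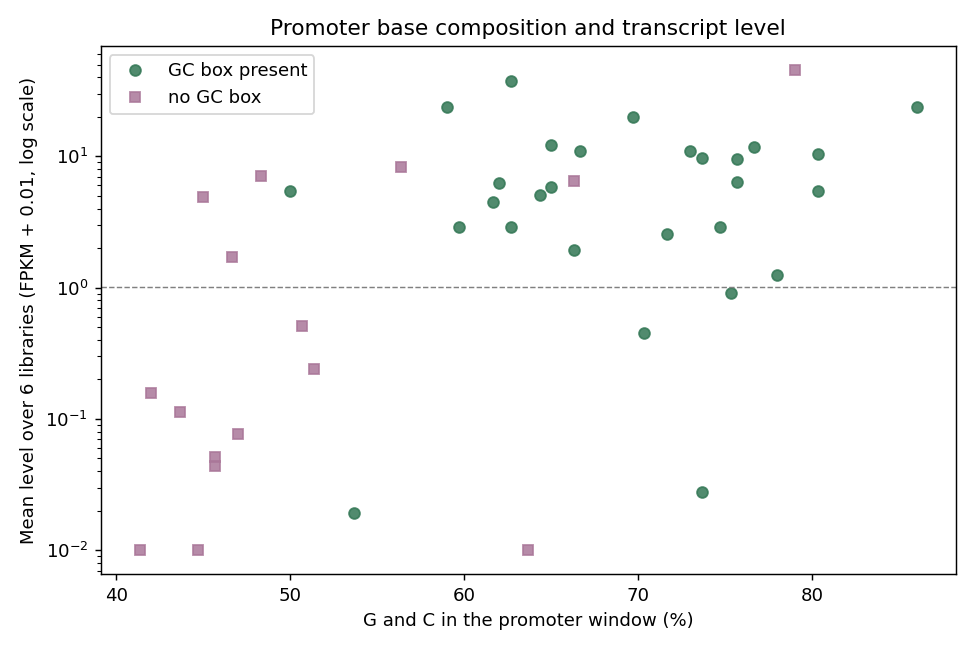
Share of G and C in the promoter window (x axis, percent) and mean FPKM over 6 libraries plus 0.01 (y axis, log scale) for the 44 windows of 43 members; circles hold the letters GGGCGG on either strand, squares do not, and the dashed line is the limit of 1 FPKM. Most points above the line are circles at 60% or more. Most points below it are squares, several of them near 45%, including the Usp17-like copies. There are exceptions on both sides, such as Usp25, a square at 79%.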

How the data were processed

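RNA-seq values of 6 libraries were used, 3 control and 3 Fbxw11. The deposited table holds FPKM, which the authors scaled to gene length and library size, per the file headers. The submitters' processing notes name the build mm10, but 43 of the 56 members lie outside their RefSeq span on GRCm38.p6 (the same build), so coordinates are printed as the file's own. The sources used here name no aligner, counting tool or strand setting. FPKM times length gave whole reads (100% of values within 0.02 reads). The library size the authors used was 1.014 to 1.018 times the read sum in control and 0.987 to 0.993 times in Fbxw11 libraries.

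Log2(FPKM + 1) of genes averaging 1 FPKM or more was tested with limma 3.58.1 in R 4.3.3 (lmFit, eBayes with trend, two-sided, no covariate), with Benjamini-Hochberg adjustment over 10898 genes and a threshold of 0.05. The steps were tested on simulated data. Ratios were tested by exact permutation. Intervals and floors from reads cover counting error only.

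The members and lists were chosen with earlier results of these data known. Named members are those past the threshold, the 8 most abundant, the 6 others with the largest absolute log2 fold change, and Usp1, Usp7, Usp9x, Usp14, Usp15, Usp18, Usp22, Usp25, Usp37, Usp39 and Usp47. From each other list up to 3 calls are named. Alternatives were other pseudocounts, filters and scalings, voom on recovered reads, no trend, a replicate block, and each library left out. Plain read sums and leaving out the libraries numbered 3 were added after seeing the data.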

Additional observations from a re-analysis of the deposited data

How the results depend on the processing

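The count of members that rose was 0 under all 17 alternatives. The count that fell was 1 under 10 of them. It was 0 with no filter (where Usp1 had an adjusted p of 0.0604) and 0 without the libraries numbered 3. It was 2 on the TPM scale and 4 with voom on recovered reads, which added Usp15, Usp37 and Usp48. Leaving out each library in turn gave 0 to 1 falls, with 0 without control library 1 or 2. With the replicate block 0 members fell, and Usp1 had an adjusted p of 0.0519. The labels do not say whether equal numbers mark shared cultures. Correlations of same-numbered deviations were 0.0361, 0.0405 and 0.189, not all above 0.1, so the numbers were not taken as pairs. The libraries numbered 3 gave the highest of the 9 correlations, while control library 1 correlated best with Fbxw11 library 2 (0.148). The log2 fold change of Usp1 ran from -0.42 to -0.30, with adjusted p from 0.000351 to 0.0795, and kept its call under 12 of 17 alternatives.

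Among the 17 named members, 5 changed sign, none of them called, and the cause was not tested. Usp22 was at -0.0233 on the TPM scale, -0.0165 with voom and -0.0167 over plain read sums. Usp7 was at -0.0334, -0.0276 and -0.0267 under the same settings and at -0.00154 without the libraries numbered 3. Under median scaling Usp8 was at 0.00656 and Usp9x at 0.00603. Leaving out a library gave Usp8 -0.0382 to 0.02004, Usp9x -0.0308 to 0.0139, Usp14 -0.0482 to 0.0207 and Usp22 -0.00556 to 0.0344. Over all genes, rises made up 49.8% of calls in the main test, 32.8% on the TPM scale, 33.4% with voom and 35.5% over plain sums, and no scaling moved the median of all genes by more than 0.1 on the log2 scale (to -0.04 on the TPM scale, from 0.00). Without the libraries numbered 3, 366 genes rose and 336 fell over all genes, against 501 and 506 in the main test. Depth limits the 17 members under 1 FPKM, and 3 libraries a group limit the rest.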
